A study of Mus musculus with 21 samples.

Results

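The HSP70 family of molecular chaperones was described in the germ cells of B6 testes at 12 dpp. Members were the rows of the expression table named for any of 10 genes (Hspa1a, Hspa1b, Hspa1l, Hspa2, Hspa4, Hspa4l, Hspa5, Hspa8, Hspa9 and Hspa14). These names found 11 rows of 37620, because Hspa14 has a second row with an identifier of its own (ENSMUSG00000079615), called the second Hspa14 row here. Expression was measured by RNA-seq as FPKM, the fragments counted per length of transcript and per depth of the library, so that levels of different genes can be set side by side. The study used expression to ask how transcription relates to the use of recombination hotspots. Its 12 libraries carry 3 replicates of each of 4 sample numbers (186wt, 343wt, 444wt, 456wt). All are C57BL/6J (B6) mice of 12 dpp labelled as spermatocytes, with names that end in wt and no treatment or allele that separates the numbers, and they were prepared by digestion of testes with collagenase and trypsin. Each mean ± SD below is over the 4 sample numbers, each number being the mean of its 3 libraries.

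HSP70 proteins hold unfolded stretches of other proteins in a cycle of ATP binding and hydrolysis. J-domain proteins bring the clients and start hydrolysis, and nucleotide exchange factors release ADP so that the client is let go. The family has constitutive cytosolic members (Hspa8), members that stress induces (Hspa1a and Hspa1b), members of the endoplasmic reticulum (Hspa5) and of the mitochondrion (Hspa9), and testis members (Hspa2 and Hspa1l). HSPA2 is known in the testis for its role in spermatocytes, where male meiosis stops without it.

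The libraries were made from a mixture of cells. All 17 meiotic prophase genes measured were above the filter on low values, and their summed level was lowest in 343wt (454 FPKM) and highest in 444wt (748 FPKM). The 10 Sertoli cell genes measured summed to between 2413 FPKM (444wt) and 4289 FPKM (343wt), led by Clu at 1844 ± 574 FPKM (SD, n = 4). Genes of peritubular myoid cells ran from 296 to 1326 FPKM in sum, and those of Leydig cells from 16.4 to 120 FPKM. None of the markers of these 4 lists was at 0, so the label spermatocytes names an enriched preparation and not pure spermatocytes. Estimated depth was 13.0 to 18.2 M (mega) fragments per library. The 3 libraries of a number may share 1 RNA extract, so the p-values below measure the spread between libraries and compare these 4 samples only.

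Levels within the family differed widely, and the lowest row was above 62.3% of the genes in the table. Hspa8 was the highest member at 586 ± 28.8 FPKM and ranked 59th of all genes, and Hspa5 followed at 461 ± 75.3 FPKM. These 2 genes held 40.5% and 31.8% of the summed level of the family, 1449 FPKM. Hspa4 (117 ± 9.79 FPKM) and Hspa9 (108 ± 4.23 FPKM) came next, then Hspa14 (56.3 ± 7.09 FPKM), Hspa4l (46.6 ± 1.13 FPKM) and Hspa2 (36.8 ± 7.04 FPKM). The inducible genes Hspa1b (19.7 ± 2.13 FPKM) and Hspa1a (15.5 ± 1.90 FPKM) stood below them, and Hspa1l (1.31 ± 0.299 FPKM) and the second Hspa14 row (1.06 ± 0.377 FPKM) closed the order. Neighbours in this order had separate ranges over the sample numbers except Hspa4 and Hspa9, Hspa1b and Hspa1a, and Hspa1l and the second Hspa14 row. With 4 paired values, an exact two-sided test of 2 neighbours cannot give a p below 0.125.

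**Figure D1:**
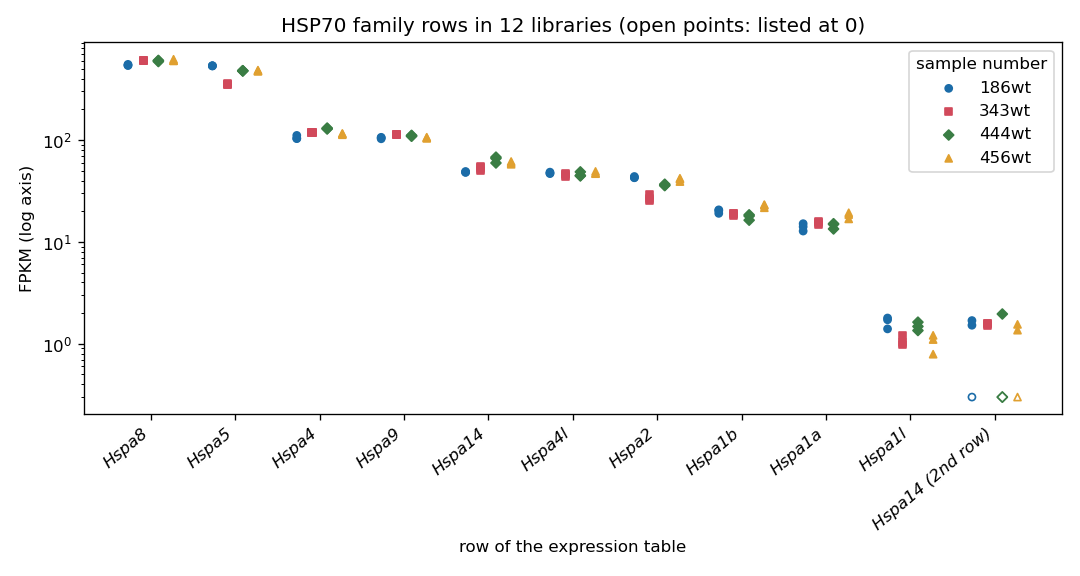
FPKM of the 11 HSP70 family rows (x axis) on a log axis (y axis), with 1 point per library, coloured and shaped by sample number. Hspa8 and Hspa5 lie at the top with means of 586 and 461 FPKM, and the second Hspa14 row was listed at 0 in 4 of 12 libraries, drawn as open points at the foot of the plot.

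An F-test in limma over the 4 sample numbers found differences in 9 of the 11 rows (81.8%), where 58.2% of the 20795 genes tested were called. Among the 8227 genes that averaged 10 FPKM or more, where spread between libraries is small, 84.5% were called. The share of the family was close to that, although it includes Hspa1l (1.31 FPKM) and the second Hspa14 row (1.06 FPKM), which are below this cut. The family median range given below includes them too. The 2 rows without a call were Hspa4l and the second row of Hspa14. The size of the differences was modest. The median range between the highest and lowest sample number was 0.38 on the log2 scale for the family, 0.55 for all genes tested and 0.33 for the genes of at least 10 FPKM. All log2 values are of FPKM plus a pseudocount of 0.1.

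**Figure D2:**
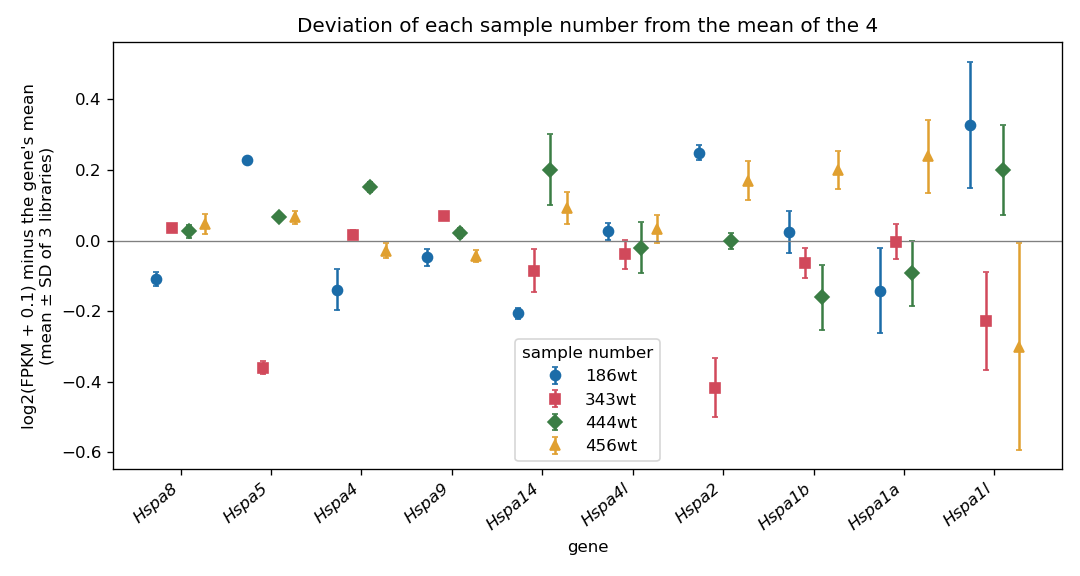
Deviation of log2(FPKM + 0.1) from the mean of the gene (y axis) for the 10 family genes (x axis), by sample number, as the mean ± SD of 3 libraries. Hspa5 and Hspa2 were lowest in 343wt, Hspa1a and Hspa1b were highest in 456wt, and Hspa4l had a range of only 0.07.

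Hspa2 encodes the testis member that accumulates as spermatocytes pass through meiotic prophase. It lies at chr12:77505163-77507921 on the plus strand of NCBI build 37, and its 1 annotated transcript has 2 exons. The libraries of 186wt read 42.6, 42.8 and 43.8 FPKM and those of 343wt 26.9, 25.7 and 28.9 FPKM. The libraries of 444wt read 36.8, 36.1 and 35.6 FPKM and those of 456wt 42.1, 41.2 and 39.0 FPKM. Every library of 343wt was below every other library, and those of 444wt were below those of 186wt and 456wt. The highest number was 1.59 times the lowest (F-test, limma adjusted p = 3.49e-07), the widest range of the 7 most abundant members. Hspa2 was lower in 343wt than in 186wt (27.1 against 43.1 FPKM, adjusted p = 8.07e-07) and higher in 456wt than in 444wt by 0.17 ± 0.04 (SE, adjusted p = 0.00939). In RNA from a mixture of cells, fewer cells of a type and less RNA per cell cannot be told apart.

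Hspa2 stood above 92.2% of all genes in the table. The 12 genes listed for pachytene and later stages had a median of 7.48 FPKM. Of the 11 that were tested, 8 were called by the F-test, where 58.2% of all genes tested were. The highest of the list were Ccnb1 (75.2 FPKM), Pttg1 (44.2 FPKM), Cdk1 (39.3 FPKM) and Ccnb2 (22.1 FPKM), while Crisp2 had 1.07 FPKM. Ldhc, the lactate dehydrogenase of spermatocytes and spermatids, had 5.96, 7.42, 1.84 and 13.5 FPKM in 186wt, 343wt, 444wt and 456wt. Its order over the sample numbers was not that of Hspa2. The pachytene and later genes summed to 196.0, 199.4, 226.6 and 258.4 FPKM in the same order of sample numbers. In 343wt against 186wt, where Hspa2 was lower, 1 of the 11 tested was higher and none lower, against 9.93% and 10.5% of all genes tested. In 456wt against 444wt, where Hspa2 was higher, 5 were higher and 1 lower, against 15.1% and 13.1%. The summed level of the meiotic prophase genes was lowest in 343wt, as Hspa2 was. Of the 17 measured, 15 were lower in 343wt than in 186wt and none was higher, where 10.5% of all genes tested were lower and 9.93% higher. In 456wt against 444wt, however, 16 of the 17 were lower, where Hspa2 was higher, and of all genes tested 13.1% were lower and 15.1% higher. The sum of the peritubular myoid genes was also lowest in 343wt, with 4 of 5 lower there than in 186wt, and all 5 were higher in 456wt than in 444wt. The part of the cell mixture in the levels of Hspa2 was not tested.

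Among 10401 genes that averaged 5 FPKM or more, the 5 whose pattern over the 4 sample means was nearest to that of Hspa2 were Hddc3, H2-D1, Gm3448, Dmpk and B230307C23Rik. Their root mean square difference from it was between 0.05 and 0.06 on the log2 scale, where the median gene was at 0.29 and 27 genes lay within 0.1. H2-D1, a classical class I histocompatibility gene, had 39.95, 27.3, 36.8 and 39.7 FPKM. Dmpk, the myotonic dystrophy protein kinase, had 36.2, 25.4, 31.2 and 36.2 FPKM. Within the family the nearest gene to Hspa2 was Hspa5 at 0.07. These distances describe 4 points only.

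Hspa5 encodes BiP, the HSP70 of the endoplasmic reticulum, where it folds secreted proteins and holds the stress sensors inactive. It lies at chr2:34627490-34632051 on the plus strand of NCBI build 37, and its longest annotated transcript has 8 exons. Its libraries of 186wt read 533, 533 and 535 FPKM and those of 343wt 353, 352 and 360.3 FPKM. Its libraries of 444wt read 476, 478 and 476 FPKM and those of 456wt 472, 484 and 476 FPKM. The groups of 444wt and 456wt overlapped, and those of 186wt and 343wt stood apart above and below them. The mean of 186wt was 1.50 times that of 343wt (F-test, adjusted p = 6.70e-11), the lowest p of the family. The difference between 456wt and 444wt was 0.001 ± 0.013 (SE, adjusted p = 0.990), the closest agreement of any 2 numbers for this gene.

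**Figure D3:**
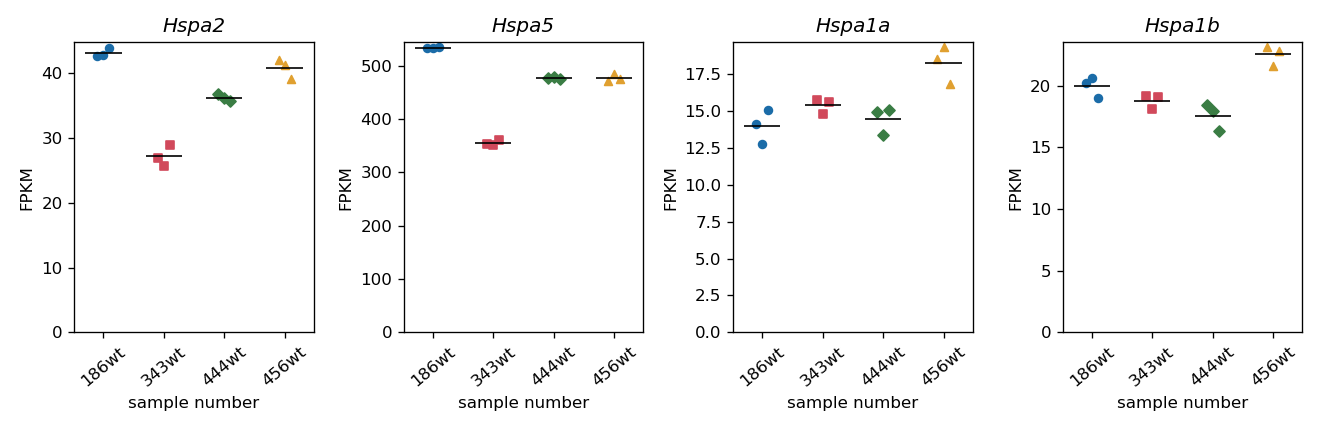
FPKM (y axes, from 0) of Hspa2, Hspa5, Hspa1a and Hspa1b in the 4 sample numbers (x axes), with 1 point per library and a line at the mean of 3. In 343wt Hspa2 had 27.1 and Hspa5 355 FPKM, the lowest of the 4 numbers, and in 456wt Hspa1a had 18.2 and Hspa1b 22.6 FPKM, the highest.

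The promoters of Hspa2 and Hspa5 are shown because each of these genes was the nearest member to the other in pattern, and they can be read side by side for the motifs searched. They are the 250 bases before the RefSeq start site in GRCm38.p6, another build than that of the FPKM, at chr12:76404120-76404369 and chr2:34771840-34772089, both on the plus strand. Capitals mark matches, on either strand, to CCAAT, to TATAA and to the ER stress response element (CCAAT and CCACG with any 9 bases between), which holds a CCAAT itself.
Hspa2: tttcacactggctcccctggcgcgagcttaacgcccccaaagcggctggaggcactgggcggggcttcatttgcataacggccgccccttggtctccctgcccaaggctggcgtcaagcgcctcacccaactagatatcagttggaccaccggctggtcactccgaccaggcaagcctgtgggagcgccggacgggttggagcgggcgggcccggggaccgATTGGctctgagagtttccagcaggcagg
Hspa5: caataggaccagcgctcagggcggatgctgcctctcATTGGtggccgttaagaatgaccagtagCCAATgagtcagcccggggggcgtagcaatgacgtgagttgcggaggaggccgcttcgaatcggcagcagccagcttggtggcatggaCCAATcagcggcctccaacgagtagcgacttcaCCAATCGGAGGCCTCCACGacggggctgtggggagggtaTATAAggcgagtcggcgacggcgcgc
Hspa5 had 1 match to the full ER stress response element, starting 65 bases before the start site, where 0.113% of 32851 promoter windows of the same length had any. It also had 4 matches to CCAAT, 1 of them in that element, found in 33.8% of windows, and a TATAA 26 bases before the start, found in 22.8%. Hspa2 had 1 CCAAT, on the minus strand 29 bases before the start, and none of the other motifs searched. A match describes letters and not a bound site. Windows were found for 8 members, and Hspa8 and Hspa9 were not among them.

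The wider set of genes induced by stress of the endoplasmic reticulum was counted beside Hspa5. All 17 measured were called by the F-test, against 58.2% of all genes tested and 84.5% of those of at least 10 FPKM. The median range of the 17 was 0.35. Of these, 12 were lower in 343wt than in 186wt and 1 was higher, against 10.5% and 9.93% of all genes tested, and with median-ratio scaling these counts were 11 and 1. Calr, the calcium-binding lectin chaperone calreticulin, had 606, 476, 559 and 568 FPKM in 186wt, 343wt, 444wt and 456wt. Hsp90b1, the HSP90 of this compartment, had 497, 413, 405 and 432 FPKM. Manf had 218.2, 217.5, 175.8 and 183.0 FPKM, and Canx 168.4, 154.8, 161.4 and 160.7 FPKM. Hsp90b1 and Manf were lowest in 444wt and not in 343wt. From the list of exchange factors, Hyou1, an HSP110-like exchange factor for BiP, had 142, 113, 136 and 154 FPKM. Sil1, the other exchange factor of BiP, had 30.4, 21.5, 24.7 and 24.9 FPKM and is not among the 17. Both were lowest in 343wt, as Hspa5 was. Herpud1, a factor in the disposal of misfolded proteins, had the widest range of the list, with 15.7 FPKM at its lowest (343wt) and 38.6 FPKM at its highest (456wt).

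Hspa8 encodes HSC70, the constitutive cytosolic member, which folds new proteins and uncoats clathrin vesicles. It lies at chr9:40609067-40613283 on the plus strand of NCBI build 37. Its level was 540, 552 and 539 FPKM in the libraries of 186wt and 596, 605 and 599.7 FPKM in those of 343wt. It was 597, 588 and 603 FPKM in those of 444wt and 599, 619 and 598 FPKM in those of 456wt. All libraries of 186wt were below all others, and the other 3 numbers overlapped. The F-test called this difference (adjusted p = 1.79e-05), although 456wt was only 1.11 times 186wt. Without 186wt the adjusted p was 0.522.

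The reads of Hspa8 are shared with copies elsewhere in the genome. Of the 100-base stretches in its annotated transcripts, 30.8% were found in transcripts of other genes. A pseudogene, Gm15459, at chr5:5781530-5783607 on the minus strand, was listed at 398, 436, 454 and 445 FPKM in 186wt, 343wt, 444wt and 456wt. Gm17431, a lincRNA annotated on the opposite strand of the same place, was listed at 133, 142, 145 and 152 FPKM. For both rows 69.6% of their stretches were also in Hspa8. Gm15459 aligned over 1941 of the 2394 bases of a coding transcript of Hspa8, with 5 mismatches and no gap. Most of that transcript is therefore shared. The first 120 coding bases of Hspa8, at chr9:40610006-40610125 on the plus strand, and the matching bases of Gm15459, at chr5:5783436-5783555 on the minus strand of NCBI build 37, show how little separates them, with the base that differs in capitals (G114A, counted from the first base shown).
Hspa8: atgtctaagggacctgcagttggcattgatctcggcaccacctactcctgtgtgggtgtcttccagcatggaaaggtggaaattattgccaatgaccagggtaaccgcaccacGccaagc
Gm15459: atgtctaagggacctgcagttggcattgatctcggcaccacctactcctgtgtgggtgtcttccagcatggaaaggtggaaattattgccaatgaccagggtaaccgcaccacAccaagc
A second pseudogene, Gm8355, shared 13.8% of the Hspa8 stretches but was listed at 0.539 ± 0.188 FPKM. All 3 rows from Hspa8, Gm15459 and Gm17431 were lowest in 186wt, and the sum of these was 1074, 1178, 1195 and 1202 FPKM. How RSEM divided the shared reads therefore bears on the level of Hspa8, whose own row had 586 FPKM where the 3 rows summed to 1162 ± 59.7 FPKM.

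**Figure D4:**
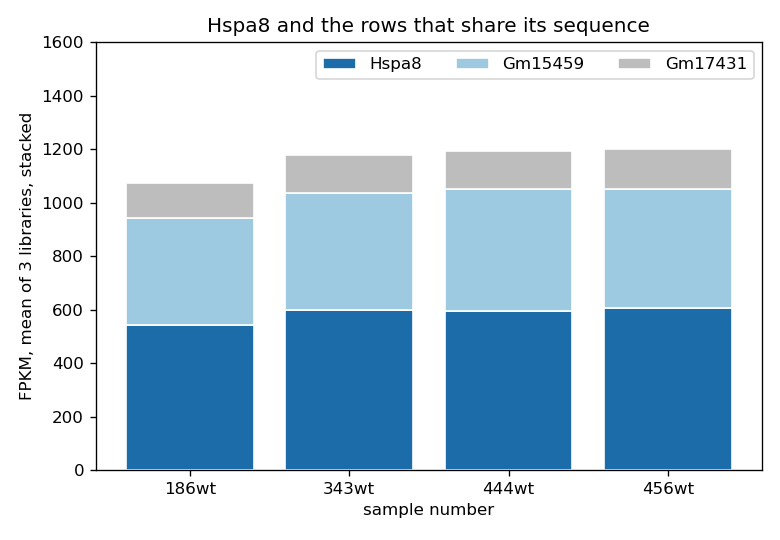
Stacked FPKM (y axis, means of 3 libraries) of Hspa8, the pseudogene Gm15459 and the opposite-strand lincRNA Gm17431 in the 4 sample numbers (x axis). The total was 1074 in 186wt and between 1178 and 1202 in the others, and Gm15459 held between 398 and 454 of each bar.

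Hspa1a and Hspa1b encode the inducible cytosolic HSP70, which accumulates after heat and other stress. Both are on the minus strand of chromosome 17 of NCBI build 37, Hspa1b at chr17:35093381-35096183 and Hspa1a, a gene of 1 exon, at chr17:35106144-35109069. Hspa1a had 14.1, 12.8 and 15.1 FPKM (186wt), 15.7, 14.8 and 15.6 FPKM (343wt), 14.9, 13.4 and 15.1 FPKM (444wt), and 18.5, 19.3 and 16.8 FPKM (456wt). Hspa1b had 20.3, 20.6 and 19.0 FPKM (186wt), 19.1, 18.2 and 19.1 FPKM (343wt), 18.4, 17.9 and 16.3 FPKM (444wt), and 23.2, 21.6 and 22.9 FPKM (456wt). For both genes the 3 libraries of 456wt were above the other 9. Both genes were called by the F-test, with an adjusted p of 0.00297 for Hspa1a and 0.000526 for Hspa1b. Both were higher in 456wt than in 444wt, by 0.33 ± 0.07 and 0.36 ± 0.05 (SE, adjusted p = 0.00489 and 0.000310). The call of Hspa1a rested on 456wt, since without that number its adjusted p was 0.252, and it was 0.0729 without the first library of each number.

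These genes share much of their sequence. Of the stretches of Hspa1a 47.8% were in Hspa1b, and of those of Hspa1b 48.3% were in Hspa1a, so the split between the rows is less certain than the sum, which was 33.95, 34.2, 32.0 and 40.8 FPKM. Gm20481, on the opposite strand over Hspa1a, contains 12.7% of the stretches of Hspa1a and is not in this sum. It was listed at 1.66, 2.14, 2.09 and 3.15 FPKM, and its shared reads cannot be told apart without strand. Hspa1b was the higher in 12 of 12 libraries. A coding stretch of both is shown because it holds bases that can tell them apart, with Hspa1a at chr17:35107455-35107574 and Hspa1b at chr17:35094537-35094656, both on the minus strand of NCBI build 37. Capitals mark the differences (A84G and A120G, Hspa1a first, counted from the first base shown).
Hspa1a: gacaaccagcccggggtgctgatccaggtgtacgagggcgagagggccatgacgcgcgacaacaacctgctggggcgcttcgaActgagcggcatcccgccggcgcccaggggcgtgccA
Hspa1b: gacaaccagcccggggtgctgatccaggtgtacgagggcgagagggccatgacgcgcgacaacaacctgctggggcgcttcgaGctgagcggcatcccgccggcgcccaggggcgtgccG
The promoters were nearly identical too. The 250 bases before the start of Hspa1a, at chr17:34972157-34972406 on the minus strand of GRCm38.p6, are printed with the heat shock element GAANNTTC and CCAAT in capitals.
Hspa1a: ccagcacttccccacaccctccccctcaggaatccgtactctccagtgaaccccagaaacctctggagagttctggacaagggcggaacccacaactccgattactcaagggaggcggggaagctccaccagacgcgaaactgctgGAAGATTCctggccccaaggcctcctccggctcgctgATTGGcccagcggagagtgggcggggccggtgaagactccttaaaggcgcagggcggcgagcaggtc
The window of Hspa1b, at chr17:34959239-34959488, differed from it at 3 positions (C44T, T47C and T249G, counted from the 5′ end). Both had 1 match to GAANNTTC, 104 bases before the start, and none to the longer element in which any 2 bases and a further GAA follow. The shorter element was in 6.69% of all windows and the longer in 0.466%. None of the other 6 members with a window had either.

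The immediate early genes, which respond within minutes to stimulation and to the handling of cells, were counted beside the inducible HSP70 genes. All 12 were called by the F-test, where 58.2% of all genes tested and 84.5% of those of at least 10 FPKM were. Of the 12, 10 were higher in 456wt than in 444wt with none lower, against 15.1% of all genes tested higher and 13.1% lower. Their summed level was 1133, 1377, 1212 and 1621 FPKM in 186wt, 343wt, 444wt and 456wt. Fos had 216, 294, 269 and 386 FPKM and Dusp1, a phosphatase of MAP kinases, 29.96, 40.7, 41.9 and 67.3 FPKM. Both were highest in 456wt, as Hspa1a and Hspa1b were. Atf3, with the widest range of the list, had 12.2, 16.1, 6.78 and 12.4 FPKM, and Jund 151.9, 184.5, 174.8 and 175.5 FPKM. These 2 were highest in 343wt. In 456wt against 343wt, 8 of the 12 were higher and 3 lower, against 27.6% and 14.2% of all genes tested. In 343wt against 186wt, however, 11 of the 12 were higher, against 9.93% of all genes tested. Neither Hspa1a (adjusted p = 0.210) nor Hspa1b (adjusted p = 0.278) was called in that contrast. Bag3, an exchange factor induced with HSP70, had 6.61, 7.18, 7.04 and 10.6 FPKM. Markers of other cell types were also highest in 456wt. The 6 red blood cell genes summed to 30.3, 77.9, 94.8 and 173 FPKM, with 4 of the 5 tested higher in 456wt than in 444wt. The peritubular myoid genes summed to 619, 296, 790.1 and 1326 FPKM, with 5 of 5 higher, and the endothelial genes to 19.7, 25.0, 16.2 and 41.9 FPKM, with 6 of 6 higher. The parts of tissue handling and of these cells in the levels of Hspa1a and Hspa1b were not tested.

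Heat shock factors are the transcription factors that bind the heat shock element, and Hsf2bp was listed with 4 of them here. All 5 genes of this list were called by the F-test, where 58.2% of all genes tested were. With median-ratio scaling 3 of the 5 were called. Hsf1, the main factor of the heat response, had 30.2, 30.1, 32.2 and 34.0 FPKM. Hsf2, which is active in development and in the testis, had 16.1, 17.4, 21.2 and 19.1 FPKM. Hsf2bp, named for binding HSF2 and needed for meiotic recombination, had 12.4, 11.5, 19.0 and 11.5 FPKM. It was highest in 444wt, which was also the sample number with the highest sums of meiotic prophase and of spermatogonial genes. In 343wt against 186wt none of the 5 was called in either direction.

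Hspa1l, the testis member of the inducible group, is known from spermatids, a stage later than these testes reach. It lies at chr17:35109648-35116229 on the plus strand of NCBI build 37, beside Hspa1a. Its libraries read 1.40, 1.79 and 1.72 FPKM (186wt), 1.21, 1.04 and 0.99 FPKM (343wt), 1.63, 1.35 and 1.48 FPKM (444wt), and 0.79, 1.10 and 1.21 FPKM (456wt). The libraries of 186wt and 444wt were all above those of 343wt and 456wt. These levels correspond to an estimated 29 to 62 fragments per library, and the spread within the sample numbers was that of counting (chi-square per degree of freedom 0.90). The F-test called the difference (adjusted p = 0.0162), but the adjusted p was 0.135 without the second library of each number, 0.105 without the third and 0.0689 without 186wt. A lincRNA on the opposite strand, Gm10501, contains 70.9% of the stretches of Hspa1l, so reads of the 2 cannot be told apart without strand. Gm10501 was listed at 0.765 ± 0.203 FPKM. The sum of the 2 rows was 2.23, 1.73, 2.54 and 1.8 FPKM in 186wt, 343wt, 444wt and 456wt. It was highest in 444wt and lowest in 343wt, where Hspa1l alone was highest in 186wt and lowest in 456wt. How RSEM divided the shared reads therefore bears on the level and the estimated fragments of Hspa1l. Of the spermatid genes, Spaca1 was the highest at 2.09 ± 0.369 FPKM, above Hspa1l itself, Tnp1 had 0.96 ± 0.59 FPKM, and Prm2 was listed at 0.

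Hspa9 encodes mortalin, the mitochondrial HSP70, which pulls proteins through the inner membrane. It lies at chr18:35097068-35114011 on the minus strand of NCBI build 37. As mean ± SD of 3 libraries it had 104.5 ± 1.74 FPKM (186wt), 113 ± 0.0557 FPKM (343wt), 109.8 ± 1.02 FPKM (444wt) and 105 ± 1.27 FPKM (456wt). The groups of 186wt and 456wt overlapped and lay below the others. With median-ratio scaling 444wt (106.8 FPKM) lay below 186wt (107.7 FPKM) too. The F-test called Hspa9 (adjusted p = 0.00025 unscaled and 7.32e-06 scaled), with a range of only 0.12 unscaled and 0.20 scaled. Its nearest member in pattern was Hspa8, at a distance of 0.06. Chaperonins are ring-shaped chaperones that receive clients from HSP70. Of the 11 measured, 9 were called by the F-test, where 58.2% of all genes tested and 84.5% of those of at least 10 FPKM were. In 456wt against 186wt all 11 were higher (10 with median-ratio scaling), against 25.9% of all genes tested, where Hspa9 differed by 0.01 ± 0.02 (SE, adjusted p = 0.828). Hspe1, the partner ring of the mitochondrial chaperonin, had 118, 140, 164 and 144 FPKM, and Tcp1, a subunit of the cytosolic chaperonin, had 192, 206, 261 and 235 FPKM. The chaperonins summed to 1396, 1523, 1803 and 1716 FPKM. The 11 spermatogonial genes summed to 901, 930.3, 1308 and 1115 FPKM, in the same order of sample numbers, and 11 of 11 were higher in 456wt than in 186wt. Their part in the chaperonin levels was not tested.

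Hspa4 and Hspa4l belong to the HSP110 branch, which serves HSP70 as nucleotide exchange factors. Hspa4, at chr11:53073316-53113959 on the minus strand of NCBI build 37, had 106 ± 4.30 FPKM (186wt, SD over 3 libraries), 118 ± 0.987 FPKM (343wt), 129 ± 1.21 FPKM (444wt) and 114 ± 1.62 FPKM (456wt). Each library of 444wt was above all others, and each of 186wt below all others. The difference passed the F-test (adjusted p = 1.26e-05). Hspa4l, at chr3:40548417-40600025 on the plus strand, is abundant in the testis, and males without it have reduced fertility. It had 47.4 ± 0.794 FPKM (186wt), 45.3 ± 1.28 FPKM (343wt), 45.9 ± 2.33 FPKM (444wt) and 47.6 ± 1.30 FPKM (456wt), and its libraries of 186wt and 456wt were above those of 343wt, while those of 444wt overlapped all others. Its range of 0.07 on the log2 scale was the narrowest of the family, and the F-test did not call it (adjusted p = 0.270). With median-ratio scaling its range was 0.129 and the F-test came close to a call (adjusted p = 0.0584). Hspa4l was then called in 444wt against 186wt (44.68 against 48.83 FPKM scaled). Hsph1, the third gene of this branch, had 23.9, 23.3, 25.3 and 26.7 FPKM and passed the test narrowly (adjusted p = 0.0481).

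Hspa14 encodes a HSP70 that binds the ribosome together with a J-domain protein. Its main row lies at chr2:3406122-3430086 on the minus strand of NCBI build 37. It had 48.5 ± 0.501 FPKM (186wt, SD over 3 libraries), 52.7 ± 2.22 FPKM (343wt), 64.4 ± 4.40 FPKM (444wt) and 59.6 ± 1.87 FPKM (456wt). All libraries of 186wt were below all others, and those of 444wt and 456wt overlapped. The F-test called it (adjusted p = 6.54e-05). The second row, at chr2:3421801-3430031, holds 1 transcript whose stretches are all in the main row. It was listed at 0 in 4 of 12 libraries and at 1.36 to 1.96 FPKM in the others, so it shows how RSEM divided shared reads and no level of its own. The sum of both rows was 49.5, 54.3, 65.05 and 60.6 FPKM.

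Pairwise contrasts show how many rows moved in each direction between sample numbers. In 343wt against 186wt, 3 rows were higher (Hspa8, Hspa4 and Hspa9) and 3 lower (Hspa5, Hspa2 and Hspa1l), against 9.93% and 10.5% of all genes tested. In 456wt against 444wt, 3 rows were higher (Hspa2, Hspa1a and Hspa1b) and 3 lower (Hspa4, Hspa9 and Hspa1l), against 15.1% and 13.1%. Without the first library of each number, only 2 rows were called between 456wt and 444wt, where all libraries gave 6. In 444wt against 186wt, 4 rows were higher and 3 lower, against 26.1% and 16.3% of all genes. In 456wt against 186wt, 5 were higher and 2 lower, against 25.9% and 15.5%. In 444wt against 343wt, 4 were higher and 1 lower, against 30.4% and 17.5%. In 456wt against 343wt, 5 were higher and 1 lower, against 27.6% and 14.2%. These contrasts share samples and are not independent of each other.

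The last 4 contrasts depended on how the libraries were scaled. With scaling by the median ratio over genes, the median gene of 444wt against 343wt moved by 0.102 on the log2 scale. The share of all calls that were higher in the first number went from 61.6% to 48.5% in 444wt against 186wt, from 62.6% to 51.0% in 456wt against 186wt, from 63.5% to 49.4% in 444wt against 343wt, and from 66.1% to 51.1% in 456wt against 343wt. The family counts then became 3 higher and 4 lower, 3 and 4, 3 and 4, and 3 and 3, in the same order. In 343wt against 186wt the family kept 3 higher and 3 lower, and in 456wt against 444wt it had 3 higher and 2 lower, Hspa1l no longer being called. No called member changed direction under this scaling. Among the calls gained or lost were those of Hspa9 in 444wt and in 456wt against 186wt. Others were those of Hspa4 in 456wt against 186wt and in 444wt and 456wt against 343wt. Hspa1b was no longer called in 456wt against 186wt (22.17 against 20.57 FPKM scaled). Hspa1a was no longer called in 456wt against 343wt (17.9 against 16.05 FPKM scaled). Hspa4l became called, lower in 444wt than in 186wt. Hspa2 and Hspa5 were lowest in 343wt and Hspa1a and Hspa1b highest in 456wt under both scalings, and Hspa8 was lowest in 186wt under both, while its highest number changed from 456wt to 343wt.

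The partners of HSP70 were counted in the same tests. The F-test called 58.2% of all genes tested and 84.5% of those of at least 10 FPKM. Of 46 J-domain genes tested, 35 were called (median range 0.32). In 343wt against 186wt, where 9.93% of all genes tested were higher and 10.5% lower, 6 J-domain genes were higher and 6 lower. Dnaja1, a cytosolic J-domain protein, led them with 164, 186, 186 and 174 FPKM. It was lowest in 186wt, as Hspa8 was. Dnajb3, a J-domain gene of the testis, had 5.17, 4.43, 6.78 and 7.45 FPKM. Of 12 exchange factors, 10 were called, with a median range of 0.28. Bag6, which guards proteins on the way to the membrane and is required in male germ cells, led them with 210, 187, 184 and 172 FPKM and was highest in 186wt, where Hspa8 was lowest. Bag1 had 86.2, 95.9, 96.1 and 97.5 FPKM. The other relatives of the family outside the 10 names, Hspa12a, Hspa12b, Hspa13, Hsph1 and Hyou1, were all called by the F-test (4 of 5 with median-ratio scaling), and Hspa12a and Hspa12b were highest in 456wt at 5.72 and 3.96 FPKM. Markers of endothelium, where Hspa12b is known, were also highest there. All 6 were higher in 456wt than in 444wt, against 15.1% of all genes tested, and their sum was 41.9 FPKM against 16.2 FPKM. The part of these cells in the levels of Hspa12a and Hspa12b was not tested.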

How the data were processed

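RNA was measured in 12 libraries of germ cells enriched from B6 testes at 12 dpp. The authors deposited FPKM computed by RSEM 1.2.8 from BowTie 0.12.9 alignments to transcripts of NCBI build 37 (versions also in the submitters' processing notes). A strand setting is not given in the sources used here. The deposited FPKM hold no counts, so depth was estimated from the steps of low values. On simulated data this estimate recovered depths spread about as widely as those found here and failed when they were spread more widely, so it assumes that the libraries do not differ more.

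Here the 3 libraries of each sample number were averaged. Genes averaging 0.1 FPKM or more were tested in limma 3.58.1 under R 4.3.3, with an intensity trend in eBayes, on log2(FPKM + 0.1), by an F-test over 4 sample numbers and by pairwise contrasts. P-values were adjusted by the Benjamini-Hochberg method over all genes of a test, with calls at 0.05. The scripts were tested on simulated data. Shared sequence was counted as identical stretches of 100 bases, on either strand, among 95495 annotated transcripts of GENCODE M1. Promoter windows came from RefSeq. Genes named from each list were taken from the 4 with the highest mean and the 2 with the widest range among those called. Not all of these are named, and some genes listed at 0 are named too. Markers of other cell types were given mostly as sums. The members and lists were chosen with earlier results of these data known. Python 3.11.15, numpy 2.4.6, pandas 2.3.3, scipy 1.17.1 and matplotlib 3.10.9 were used. Alternatives were other pseudocounts (0.01 and 1 FPKM), other filters, median-ratio scaling, rescaling to a common sum, the median of the libraries, a replicate block and leaving out libraries or sample numbers. Summing the rows that share stretches was added after seeing the data. The ChIP-seq and Affinity-seq samples were not used here.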

Additional observations from a re-analysis of the deposited data

Results flagged for a closer look

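Hspa8 in 186wt, at 543.2 FPKM, stood apart from the other 3 sample numbers. Its gap to the nearest of them was 0.856 of the whole range of the 4, above the 95% critical value of Dixon's ratio for 4 samples. The mean of the other numbers was 600.4 FPKM. Of 11 rows examined this was the only 1 above that value, and chance flags about 1 group in 20. With median-ratio scaling Hspa8 was still lowest in 186wt, at 559.5 FPKM, but its gap was 0.302 of the range and no longer above the critical value, and 343wt was then the number farthest from the others (0.476).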

How the results depend on the processing

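The F-test called 9 of 11 family rows, and the alternatives kept each count of calls within 1.5 times of its value except the contrast of 456wt against 444wt, which had between 2 and 5 family rows called when 1 library of each number, or 186wt or 343wt, was left out, against 6 with all. The lowest count was without the first libraries. Calls over all genes ranged from 9516 to 12146 over the alternatives, against 12107. Single calls were lost when libraries or numbers were left out, for Hspa1a, Hspa1l and Hspa8, with the values given above, and the cause was not tested. With a replicate block, 9 family rows and 11774 genes were called. The library numbers do not pair the samples: correlations of same-numbered libraries ran from -0.065 to 0.128 over 18 pairs, and 5 of 12 libraries correlated best with their own number. With the rows that share stretches summed, 8 of 9 family rows were called. The 12 library values limit what can be said of genes near 1 FPKM, and 4 samples limit every statement between samples.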

Other observations

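The small heat shock proteins hold unfolding proteins without ATP. Of 9 tested, 5 were called, about the 58.2% of all genes. Their median range was 0.90 on the log2 scale, where that of all genes tested was 0.55 and that of the HSP70 family 0.38. The median level of the 10 listed, Cryaa included, was only 2.18 FPKM. Hspb1 had 119, 126, 68.7 and 93.1 FPKM in 186wt, 343wt, 444wt and 456wt, and Cryab had 4.78, 6.65, 5.76 and 10.8 FPKM. Cryaa was listed at 0. Of 15 HSP90 genes and cochaperones 14 were called, with a median range of 0.23, where 84.5% of all genes of at least 10 FPKM were called. Hsp90ab1, the constitutive cytosolic form, was the highest at 852 ± 57.5 FPKM (SD, n = 4). Hsp90aa1, the form abundant in germ cells, had 352, 335, 465 and 407 FPKM. It was highest in 444wt, as the sums of the meiotic prophase, spermatogonial and chaperonin genes were.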
